A study of Homo sapiens with 3 samples.

Results

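The genes described here encode the proteins that dock, prime and fuse synaptic vesicles, dense-core granules and other transport vesicles with their target membranes. They were chosen by symbol in the platform annotation: the numbered STX, STXBP, SYT, VAMP and SNAP families, the CPLX, UNC13, RAB3 and RIMS families, and the genes SYN1 to SYN3, SYP, SV2A to SV2C, NSF, NAPA, NAPB, CHGA, CHGB, SCG2, SCG3 and SCG5, without pseudogenes and antisense transcripts. Of 14884 named genes, 68 met the rule, and 42 of these had a mean log2 value at or above 6.78, the median of all named genes, which is the level filter used below. The rule itself uses symbols only, although it was written with earlier results of these data known. The SNAP and RAB3 families had no member with a named probe set and were not analysed here.

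The cells were BE(2)-C, a human neuroblastoma line with an amplified MYCN gene, grown as a single line in all groups. They carried WDR5 siRNA-1, WDR5 siRNA-2 or a control siRNA for 40 hours, and each of the 3 groups had 1 array (Affymetrix HuGene-2_0-st). WDR5 holds together the enzyme complexes that place methyl groups on lysine 4 of histone H3. With 1 array per group there was no replicate spread, no test was run and no p-value is given. Every ratio below compares a pair of arrays, and the ratios of both siRNAs share the same control array.

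Vesicles fuse when a v-SNARE of the VAMP family on the vesicle zips up with syntaxin and SNAP proteins on the target membrane. SM proteins of the Munc18 type guide this assembly, UNC13 and RIMS proteins prime it, complexins clamp it, and synaptotagmins trigger it in response to calcium. NSF then takes the spent complex apart. Neuroblastoma cells descend from the sympathoadrenal lineage, whose chromaffin cells and neurons store catecholamines in dense-core granules filled with chromogranins and secretogranins.

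The arrays had medians between 5.79 and 5.81 over 53617 probe sets. WDR5 stood at 7.90 with siRNA-1, 7.90 with siRNA-2 and 9.46 with the control siRNA. The difference was -1.56 with each siRNA on the log2 scale. The deposited WDR5 value was identical on both siRNA arrays, an exact tie that is not explained in the sources used here. Of 9 adrenergic neuroblastoma markers, 7 had a named probe set and all of these were above the level filter. Their log2 ratios ran from -0.81 (DBH) to 0.23 (ISL1) with siRNA-1 and from -0.35 (HAND2) to 0.51 (DBH) with siRNA-2, and TH was tied on all arrays. Of 10 markers of Schwann cells, fibroblasts, leukocytes and endothelium, 5 were measured and 3 were above the filter. S100B (6.83) and SOX10 (6.96) had the same value on every array, and CD68 stood at 8.14, 7.83 and 7.75 with siRNA-1, siRNA-2 and control. Below the filter, DCN was tied at 4.80, and the endothelial marker PECAM1 stood at 4.88, 5.12 and 4.29, or log2 ratios of 0.59 and 0.83. The part of other cells in the results below was not tested.

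The members that stood out were STXBP5, which encodes tomosyn, an inhibitor of SNARE assembly that binds syntaxin in place of a VAMP, and SYT4, a synaptotagmin of dense-core granules. Both were at least 1.5-fold higher with each WDR5 siRNA than with the control. CHGA and VAMP3 differed the most between the siRNAs: setting siRNA-1 over siRNA-2, the granule protein gene CHGA was lower and the v-SNARE gene VAMP3 was higher. The promoters of these 4 genes are shown because they let the shared and the differing patterns be set beside their upstream sequence. The bases are the 250 before the annotated transcript start, from RefSeq on GRCh38.p14, on the strand of the gene. They lie at chr6:147204167-147204416 (plus strand), chr18:43277491-43277740 (minus strand), chr14:92922900-92923149 (plus strand) and chr1:7771046-7771295 (plus strand). Capitals mark matches, on either strand, to 5 motifs: the E-box CACGTG bound by MYC proteins, the full cyclic AMP response element (CRE) TGACGTCA, its core TGACG, part of the RE1 element of the neuronal repressor REST (TCAGCACC), and the EGR1 site GCGGGGGCG. The core lies inside the full CRE.
STXBP5: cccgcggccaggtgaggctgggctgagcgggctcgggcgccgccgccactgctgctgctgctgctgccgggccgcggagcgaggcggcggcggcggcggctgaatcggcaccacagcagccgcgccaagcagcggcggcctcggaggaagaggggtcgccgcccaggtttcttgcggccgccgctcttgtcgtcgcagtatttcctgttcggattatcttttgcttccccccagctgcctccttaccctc
SYT4: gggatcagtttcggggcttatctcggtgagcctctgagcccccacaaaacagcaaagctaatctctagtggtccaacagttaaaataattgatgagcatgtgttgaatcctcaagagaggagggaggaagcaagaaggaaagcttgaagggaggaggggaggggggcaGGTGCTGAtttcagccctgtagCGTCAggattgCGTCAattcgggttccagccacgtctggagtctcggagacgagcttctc
CHGA: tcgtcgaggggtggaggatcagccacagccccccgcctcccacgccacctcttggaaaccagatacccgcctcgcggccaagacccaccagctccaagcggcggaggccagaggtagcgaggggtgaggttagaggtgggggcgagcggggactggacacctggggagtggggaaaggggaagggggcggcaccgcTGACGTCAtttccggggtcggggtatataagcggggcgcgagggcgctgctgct
VAMP3: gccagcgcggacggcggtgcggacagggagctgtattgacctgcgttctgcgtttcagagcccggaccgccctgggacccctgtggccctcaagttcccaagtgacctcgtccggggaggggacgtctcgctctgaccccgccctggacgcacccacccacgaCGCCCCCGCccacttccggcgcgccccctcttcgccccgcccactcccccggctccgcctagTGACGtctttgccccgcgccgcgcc

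The STXBP5 window held none of the 5 motifs. The SYT4 window held the RE1 part with its first base 82 bases before the start, and the CRE core at 60 and 49 bases, all on the other strand. The CHGA window held the full CRE at 54 bases before the start, and the VAMP3 window held the EGR1 site at 87 and the CRE core at 25 bases. The genes higher with both siRNAs therefore had no motif of the 5 in common in these windows. Of all 35116 promoter windows of the same length, 6.34% held the E-box, 1.65% the full CRE, 21.2% the CRE core, 1.32% the RE1 part and 4.72% the EGR1 site. Windows were found for 54 of the 68 members, 35 of them above the level filter. Among these 35 genes, 17 (48.6%) had the CRE core in some window, against 36.9% of 5986 genes above the filter. The full CRE was found for 4 of the 35 (CHGA, STX12, STXBP3 and SYN1), against 3.61% of those 5986 genes. The E-box was found for 6 of the 35 (17.1%, against 11.7% of the 5986), and the EGR1 site for 6 (17.1%, against 10.3%). The RE1 part was found for 2, SYN1 and SYT4 (5.71%, against 1.72%). The median GC content of the windows was 66% for these members and 64.8% for all genes above the filter. A match describes the letters only.

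**Figure D1:**
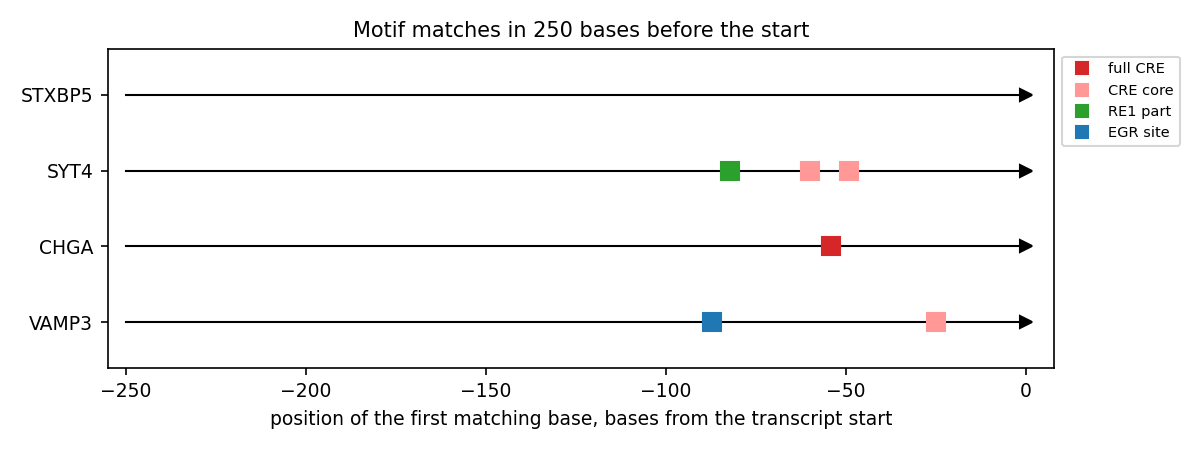
Positions of motif matches in the 250 bases before the transcript start of STXBP5, SYT4, CHGA and VAMP3 (x axis: first matching base, in bases from the start, which the arrowhead marks). Squares are matches to the full CRE, the CRE core, the RE1 part or the EGR1 site, and the CRE cores inside the full CRE of CHGA are not drawn separately. STXBP5 has no match, and SYT4 has 3.

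Across the 42 members above the filter, 2 were at least 1.5-fold higher with both siRNAs (STXBP5 and SYT4), which is 4.76% of them, against 0.618% of the 7442 named genes above the filter. None (0) was lower by as much with both, against 0.847% of all genes. With each siRNA counted by itself, the same 2 members were at least 1.5-fold higher than control with siRNA-1 (background 2.24%) and 0 were lower (background 4.60%). With siRNA-2, 5 were higher (STXBP5, SYT2, SYT4, SYN2 and CHGA; background 2.19%) and 2 were lower (VAMP3 and VAMP7; background 4.00%). In the direct comparison, siRNA-1 over siRNA-2, VAMP3 was at least 1.5-fold higher (background 4.21%), and CHGA, STX8, SYN2 and SYT2 were at least 1.5-fold lower (background 4.65%). With so few members above the filter, 1 gene more or fewer moves each of these shares by over 2 percentage points. None (0) of the 26 members below the filter was past 1.5-fold with either siRNA, which is not particular to them. The central 90% of all genes below the filter also lay within 1.5-fold. It ran from -0.26 to 0.21 on the log2 scale with siRNA-1 and from -0.20 to 0.19 with siRNA-2.

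For siRNA-1 the median log2 ratio of the 42 members was 0.02, for siRNA-2 it was 0.07, and that of all genes above the filter was 0.00 with each. The central 90% of all genes ran from -0.56 to 0.42 with siRNA-1 and from -0.52 to 0.38 with siRNA-2. Outside it lay 3 of the 42 members with siRNA-1 and 8 with siRNA-2, where 10% of all genes lie by construction. With siRNA-2, 26 members were above control by any amount, 8 below and 8 tied, and among all genes 32.6% were above and 41.6% below. That split of all genes depends on small shifts between arrays: after quantile normalization 65.8% were above and 34.2% below, and 34 and 8 of the members. With siRNA-1, 22 members were above control, 15 below and 5 tied, against 38.1% above and 38.2% below among all genes (27 and 15 members, and 62.7% and 37.2% of all genes, after quantile normalization). The plot of each ratio against the other shows most members near the origin.

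**Figure D2:**
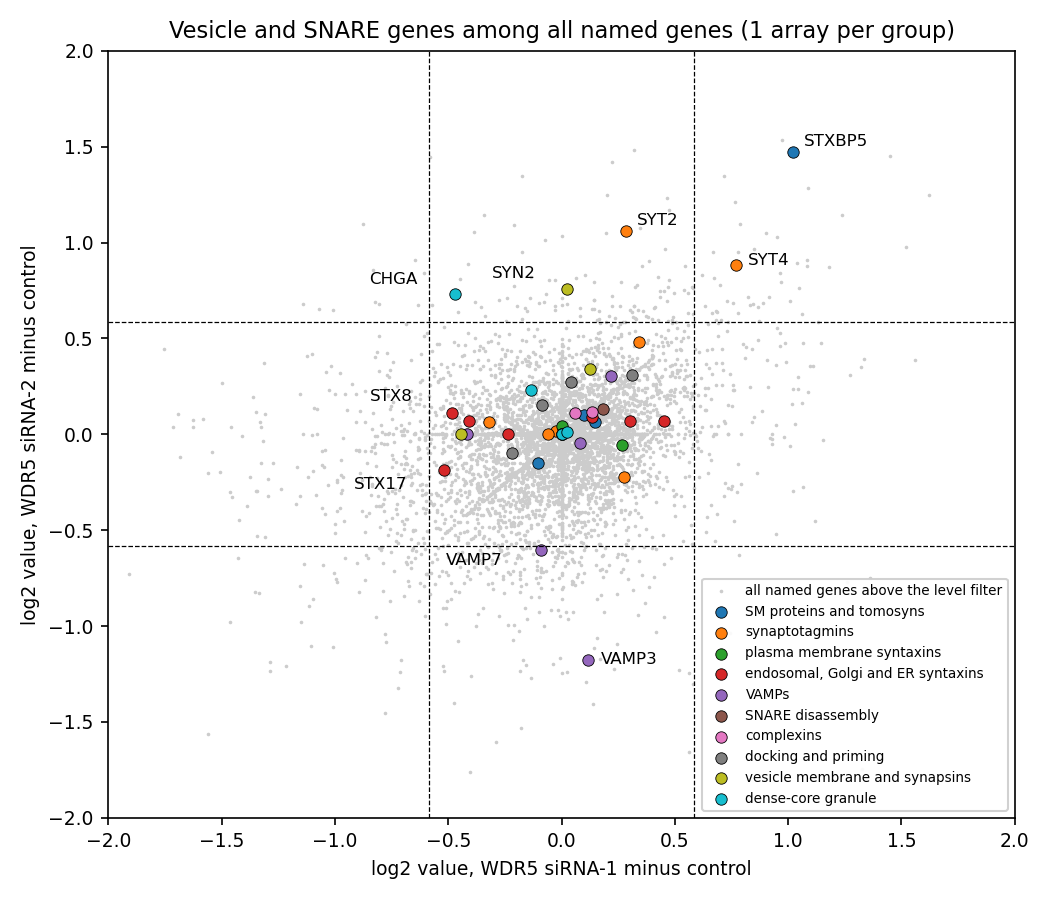
Log2 value with WDR5 siRNA-1 minus control (x axis) against log2 value with WDR5 siRNA-2 minus control (y axis) for the 42 vesicle and SNARE genes above the level filter (coloured by role) and all named genes above it (grey; 4 lie beyond the axes). Dashed lines mark 1.5-fold; both axes share the control array. STXBP5 and SYT4 alone among the coloured points lie beyond the lines on both axes, while CHGA, SYN2, SYT2, VAMP3 and VAMP7 pass them on the y axis only.

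STXBP5 stood at 10.53 with siRNA-1, 10.98 with siRNA-2 and 9.51 with the control. It was thus high with both siRNAs, 2.03-fold and 2.77-fold above control, and ranked 35 from the top among 7442 genes with siRNA-1 and 4 with siRNA-2. The antisense transcript at this gene, STXBP5-AS1, had 3 probe sets, all below the filter: the highest was tied at 4.94, and the log2 ratios of the others lay between 0 and 0.08. The close relative STXBP5L, tomosyn-2, stood at 7.88 with each siRNA and 7.78 with the control, a ratio of 0.10 on the log2 scale with each. Its deposited value was identical on both siRNA arrays, an unexplained exact tie like that of WDR5. STXBP4, a syntaxin-4 partner first linked to insulin-regulated traffic, had log2 ratios of 0.15 and 0.06. STXBP3 (Munc18c), the SM protein of syntaxin-4, had log2 ratios of -0.11 and -0.15. STXBP2 (Munc18b, at 6.24) and STXBP6 (amisyn, at 5.96) lay below the filter with 1 identical value on all arrays. In this family only STXBP5 was past 1.5-fold.

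Synaptotagmins were the family with the most members, 16, of which 7 were above the filter. SYT4 stood at 9.82 with siRNA-1, 9.93 with siRNA-2 and 9.05 with the control, 1.71-fold and 1.85-fold higher. The arrays of both siRNAs were close to each other and apart from the control array, and the gene ranked 87 and 41 from the top. SYT2, a fast calcium sensor of synaptic vesicles, stood at 7.12, 7.90 and 6.84 with siRNA-1, siRNA-2 and control. It was 1.22-fold above control for siRNA-1 and 2.08-fold for siRNA-2, and its control value was close to the filter level. SYT9, a calcium sensor of dense-core granules and some synapses, leaned the same way with 7.40, 7.54 and 7.06, or log2 ratios of 0.34 and 0.48, under 1.5-fold with each. SYT1, the main calcium sensor of fast release, barely differed between arrays, at 9.41, 9.46 and 9.44. SYT11, which lacks calcium binding and regulates membrane retrieval, had log2 ratios of 0.28 and -0.22, SYT5 of -0.32 and 0.06, and SYT14 of -0.06 and 0. The 9 others (SYT3, SYT6, SYT7, SYT8, SYT10, SYT12, SYT13, SYT15 and SYT17) lay below the filter, with ratios between -0.17 and 0.04, and 4 of them were tied on all arrays.

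**Figure D3:**
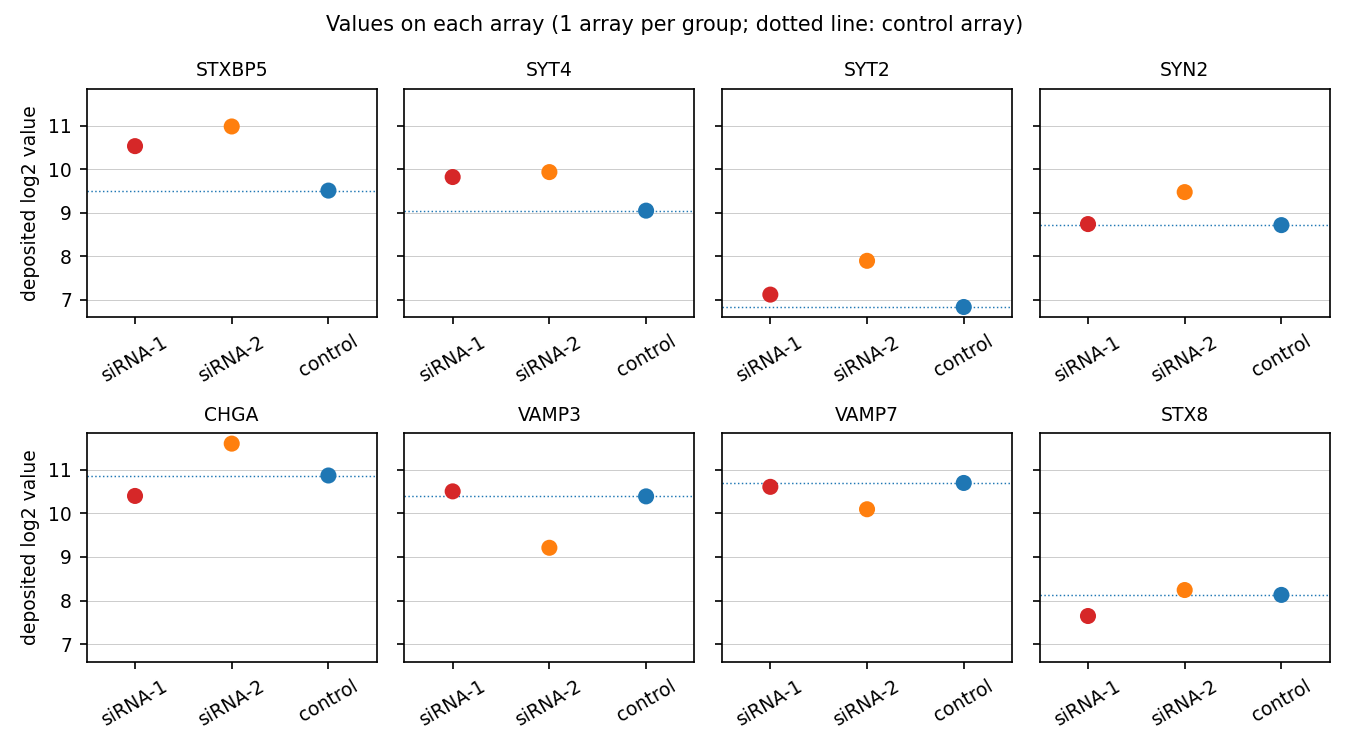
Deposited log2 value (y axis) on each array (siRNA-1, siRNA-2, control, left to right) for the 8 members at least 1.5-fold apart between some pair of groups. Each point is 1 array, with no error, and the dotted line repeats the control value; values of different genes come from different probes and are not compared. STXBP5 and SYT4 are above the line with both siRNAs, SYT2 and SYN2 mostly with siRNA-2, CHGA is on opposite sides of it, and VAMP3 and VAMP7 are low with siRNA-2.

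Among the syntaxins of the plasma membrane, none (0 of 6) was past 1.5-fold with either siRNA. STX1A, the syntaxin of synaptic release, read 7.73 with siRNA-1, 7.77 with siRNA-2 and 7.73 with control. STX4, which serves exocytosis in most cell types, was tied at 7.46. STX2 (epimorphin) stood at 10.39, 10.06 and 10.12, or 0.27 above control for siRNA-1 and -0.06 for siRNA-2 on the log2 scale. STX3 (5.40), STX11 (5.99, 6.11 and 6.11) and STX19 (4.93) were below the filter.

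The syntaxins of endosomes, Golgi and endoplasmic reticulum had 9 members, 8 of them above the filter. They spread more widely with siRNA-1, from -0.52 to 0.45 on the log2 scale, than with siRNA-2, from -0.19 to 0.11. STX8, a SNARE of late endosomes, stood at 7.64 with siRNA-1, 8.24 with siRNA-2 and 8.13 with control, and the siRNA-1 value was 1.51-fold lower than the siRNA-2 value. Its late endosome partner STX7 had the same order, at 7.75, 8.23 and 8.16. STX17, the syntaxin of autophagosomes, read 7.44, 7.77 and 7.96, or 1.43-fold and 1.14-fold lower than control. STX6, of the trans-Golgi network, went the other way with siRNA-1, at 9.93, 9.55 and 9.48. STX12 (endosomes) had log2 ratios of 0.30 and 0.07, STX10 (trans-Golgi network) of -0.24 and 0, STX18 (endoplasmic reticulum) of 0.14 and 0.09, and STX5 (Golgi) was tied at 7.20. No member of this group passed 1.5-fold against control. The readthrough transcript STX16-NPEPL1, which meets the symbol rule, lay below the filter at 6.63, 6.72 and 6.70.

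Among 7 VAMP genes, 5 of them above the filter, VAMP3 and VAMP7 were low with siRNA-2. VAMP3 (cellubrevin), the v-SNARE of recycling endosomes, read 10.50 with siRNA-1, 9.21 with siRNA-2 and 10.39 with control. The siRNA-1 array was 1.08-fold above control. The siRNA-2 array was 2.26-fold below it, and there the gene ranked 32 from the bottom of the 7442 genes. VAMP7, a v-SNARE of late endosomes and of neurite outgrowth, had readings of 10.61, 10.09 and 10.70, or 1.06-fold and 1.52-fold lower, just past the limit with siRNA-2. Its other probe set gave -0.09 and -0.61 on the log2 scale. It had the same values on the siRNA-1 and control arrays, so it was not taken as separate support. VAMP2 (synaptobrevin-2), the v-SNARE of synaptic vesicles, did not share this pattern: it stood at 7.32, 7.40 and 7.10, or 1.16-fold and 1.23-fold higher. VAMP4, of the trans-Golgi network, had log2 ratios of 0.08 and -0.05. VAMP5, found mostly in muscle, had -0.42 and 0, and VAMP1 and VAMP8 lay below the filter with ratios between -0.09 and 0.07.

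**Figure D4:**
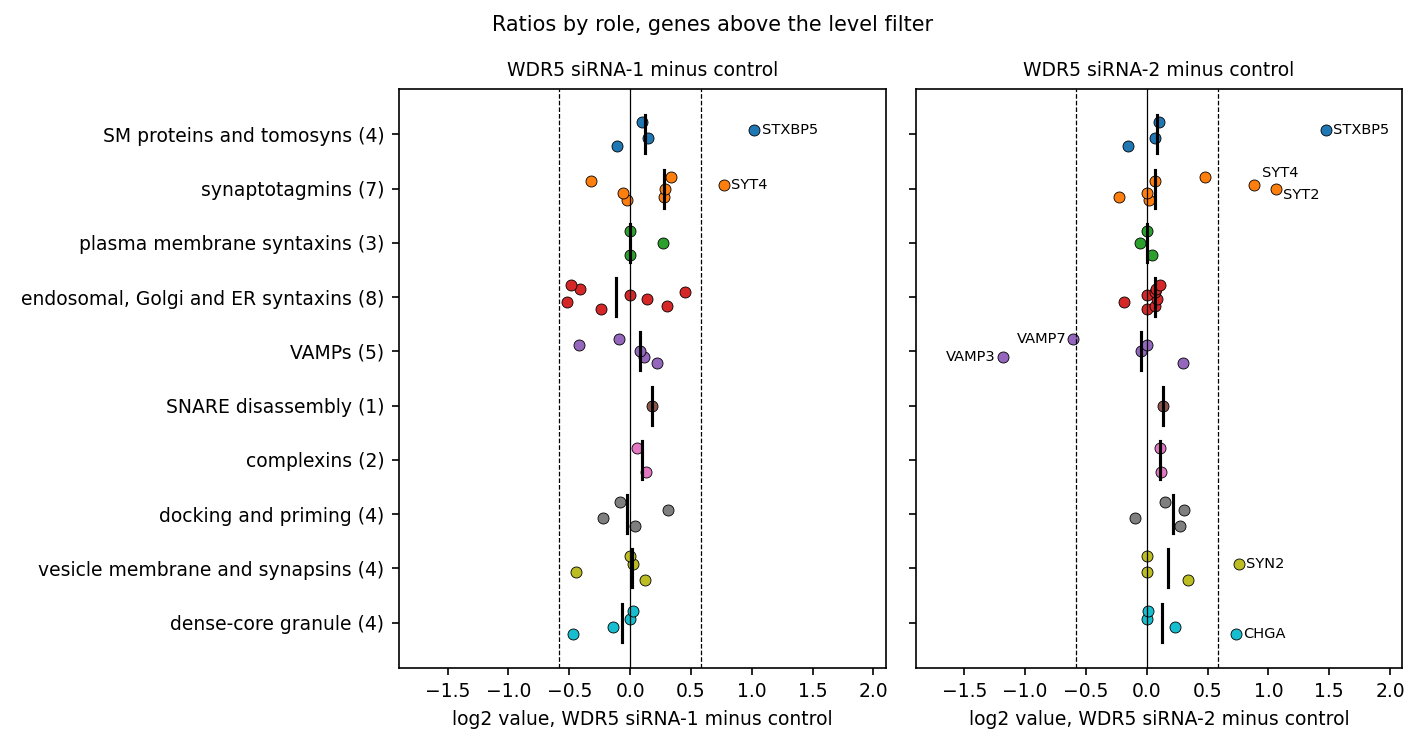
Log2 ratio to control (x axis) with WDR5 siRNA-1 (left) and WDR5 siRNA-2 (right) for members above the level filter, by role (y axis, number of genes in brackets). Each point is 1 gene, thick bars are medians and dashed lines mark 1.5-fold. The named genes are those past 1.5-fold, and every other gene lies between the dashed lines.

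The priming and clamping genes stayed close to control. UNC13A (Munc13-1), the main priming factor of synaptic vesicles, stood at 9.29 with each siRNA and 8.98 with control, 1.24-fold higher with each. UNC13B had log2 ratios of -0.09 and 0.15. RIMS2, an active zone scaffold that tethers vesicles and calcium channels, had 0.04 and 0.27, and RIMS4 had -0.22 and -0.10. The complexin genes CPLX1 (10.03, 10.02 and 9.90) and CPLX2 (7.62, 7.67 and 7.56) were above control by 0.13 and 0.11 and by 0.06 and 0.11 on the log2 scale. RIMS1, UNC13C, UNC13D, CPLX3 and CPLX4 were below the filter, with ratios between 0 and 0.25. All of these genes stayed under 1.5-fold with either siRNA.

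NSF, the ATPase that disassembles SNARE complexes, read 11.58 with siRNA-1, 11.53 with siRNA-2 and 11.40 with control. Its value is uncertain because the near-identical pseudogene NSFP1 can share its probes; NSFP1 read 12.02, 11.98 and 11.64.

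Of 7 vesicle membrane and synapsin genes, 1, SYN2, was past 1.5-fold, with siRNA-2. SYN2, a synapsin that tethers vesicles to the cytoskeleton, stood at 8.74 with siRNA-1, 9.47 with siRNA-2 and 8.71 with control, 1.02-fold and 1.69-fold higher. SYN1 was instead low with siRNA-1, at 7.88 against 8.33 on the other arrays, a log2 ratio of -0.45. SV2A, a synaptic vesicle glycoprotein and the binding site of levetiracetam, stood at 10.83, 11.05 and 10.71, or 1.09-fold and 1.27-fold higher. SYP (synaptophysin) was tied at 9.15, and its second probe set read 6.80, 6.80 and 6.78. SYN3, SV2B and SV2C were tied on all arrays below the filter.

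Dense-core granule genes differed most for CHGA. CHGA (chromogranin A), a protein of the granule core that serves as a marker of neuroendocrine tumours, stood at 10.40 with siRNA-1, 11.60 with siRNA-2 and 10.87 with control. The siRNA-1 value was 1.38-fold below control and the siRNA-2 value 1.66-fold above it, so that siRNA-1 was 2.30-fold lower than siRNA-2. CHGB (chromogranin B) had the same order with smaller differences, at 9.85, 10.22 and 9.99. SCG2 (secretogranin II) had an identical 12.16 on each array, and SCG3 (secretogranin III) read 10.84, 10.84 and 10.82. SCG5 (7B2), a chaperone of the prohormone convertase PCSK2, lay below the filter with log2 ratios of 0.20 and 0. The median log2 ratio of the 4 genes above the filter was -0.07 for siRNA-1 and 0.12 for siRNA-2.

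Exact ties shape these small ratios. Of the 26 members below the filter, 15 (57.7%) had the same value on all arrays, against 54.0% of all genes below it. Of the 42 above it, 4 (SCG2, STX4, STX5 and SYP) did, which is 9.52%, against 14.9% of all genes above it. A tie in the deposited table is not a measured absence of change.

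Genes of the same machinery outside the symbol rule were taken from 6 lists with 105 genes, of which 70 were measured and 53 were above the filter. Among these 53, 1 was at least 1.5-fold higher with both siRNAs (background 0.618%) and 0 were lower (background 0.847%). That gene was VGF, a granule cargo and neuropeptide precursor, at 9.93, 9.84 and 8.69. SCAMP1, a membrane protein of recycling vesicles, came next with log2 ratios of 0.53 and 0.49, and USE1, a SNARE of Golgi to endoplasmic reticulum traffic, had 1.04 and 0.30. On the low side were SCFD2, an SM-type protein, with -0.53 and -0.71, the SM protein VPS33B with -0.32 and -0.35, and the endosomal SNARE VTI1B with -0.30 and -0.57. The 14 SNARE and SM genes of this set had a median log2 ratio of -0.08 with each siRNA, against 0.00 for all genes above the filter. For siRNA-1 and siRNA-2 the medians were 0.00 and 0.28 for granule cargo, 0 and 0.15 for the exocyst, and 0.02 and 0.16 for endocytosis. They were 0 and 0 for the active zone list, and -0.01 and 0.00 for vesicle membrane proteins and transporters. Counting each siRNA by itself, with VGF in both counts, 2 of the 53 were at least 1.5-fold higher with siRNA-1 (background 2.24%) and 1 lower (4.60%). The siRNA-2 array had 3 higher genes (2.19%) and 1 lower (4.00%).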

How the data were processed

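Expression was measured on 3 arrays, 1 per group, and the file used is the authors' value table with 1 row per probe set. Deposited values ran from 1.34 to 14.9 and were taken as log2. No scale is stated, so each fold depends on this. MAS5 is named, without its step, per the submitters' processing notes; how signals were corrected, normalized and summarised is not given in the sources used here. No scaling was added.

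Names came from the platform annotation (16098 rows with 1 symbol), checked against RefSeq GRCh38.p14 by Entrez identifier. The probe set with the highest mean stood for each gene (2 members, SYP and VAMP7, had 2). Log2 ratios were differences between arrays, and genes at least 1.5-fold apart were counted, with no test, in Python 3.11.15 with pandas 2.3.3. The counting code was checked on simulated arrays with known folds, which tests its arithmetic only and not the counts reported here. RAB3 was read as RAB3 proteins only. The members and the lists were chosen with earlier results of these data known. Genes named are the members, WDR5, cell type markers, transcripts that overlap or copy a member, and the related genes with the most extreme shared ratios; DNM1, ITSN2 and DBH were added after their values were seen. Alternatives were other scalings, filters, thresholds, probe set rules and the wider RAB3 stem. Promoter windows and their coordinates are from RefSeq; the table's own build is not given in the sources used here.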

Additional observations from a re-analysis of the deposited data

Results flagged for a closer look

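CHGA was the 1 member of 42 that lay at least 0.32 from control on the log2 scale in opposite directions, at -0.47 for siRNA-1 and 0.73 for siRNA-2. Of all 7442 genes above the filter, 121 (1.63%) were. The difference was not tested, because each siRNA has 1 array.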

How the results depend on the processing

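With 1 array per group no replicate could be left out, and the number of arrays limits every value. No paired analysis was possible because each group has a single array. The 6 counts of members stayed within 1.5 times with quantile normalization, arrays centred on their medians, no filter, the 75th percentile filter, the mean of probe sets and the wider RAB3 stem. Over the same alternatives the median log2 ratio of members ran from 0 to 0.10 for siRNA-1 and from 0 to 0.12 for siRNA-2, so the size of these medians is not firm. Some of these settings had little room to move the counts. No member below the filter and no gene added by the RAB3 stem was past 1.5-fold. Only SYP and VAMP7 had 2 probe sets. Unchanged counts in those settings say little about how firm the counts are. The ratios of 78 genes (the 68 members, WDR5 and 9 related genes) kept their side of 1.5-fold under the 3 alternatives run on them, both scalings and the mean of probe sets. Centring moved every ratio by only 0.01 on the log2 scale. Among the members, the mean of probe sets could change SYP and VAMP7 alone. Little could therefore change under these alternatives other than quantile normalization. The fold limit mattered. With the limit lowered to 0.32 on the log2 scale, 4 of the 42 members were higher and 6 lower with siRNA-1. The backgrounds were 7.9% and 12% of all genes, so the siRNA-1 counts lie near them. At that limit 7 were higher (background 6.65%) and 2 lower (11.2%) with siRNA-2. With both siRNAs 3 were higher (2.47%) and 0 lower (3.78%). At 2-fold, 1 member was higher with both siRNAs (background 0.0806%) and 1 with siRNA-1 (0.524%), and with siRNA-2 there were 2 higher (0.39%) and 1 lower (0.658%).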

Other observations

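Of the 53 related genes above the filter, 1 was at least 1.5-fold higher and 4 were lower when siRNA-1 was set over siRNA-2 (background 4.21% and 4.65%). DNM1, ITSN2 and DBH, of the 4, were picked with their values in view, and the other endocytosis genes differed less between the siRNAs. DNM2, SYNJ1 and SH3GL1 had log2 ratios to control between -0.01 and 0.06. For siRNA-1 and siRNA-2, BIN1 had 0.26 and 0.15, PICALM 0.10 and 0.30, and ITSN1 -0.07 and 0.18. With siRNA-2 all 8 endocytosis genes were above control by any amount, with a median of 0.16, DNM2 by only 0.002. Of all genes above the filter 32.6% were above control with siRNA-2, but 65.8% after quantile normalization. The background for such a split is therefore not firm. With siRNA-1, 4 of the endocytosis genes were above control, 3 below and 1 tied. DNM1, the neuronal dynamin that pinches off endocytic vesicles, stood at 9.47 with siRNA-1, 10.12 with siRNA-2 and 9.33 with control, 1.10-fold and 1.74-fold higher. ITSN2, an endocytic scaffold, read 8.26, 9.21 and 8.50, or 1.18-fold lower and 1.63-fold higher. DBH, the granule enzyme that makes noradrenaline, read 9.58, 10.90 and 10.39, 1.75-fold below control for siRNA-1 and 1.43-fold above it for siRNA-2. That is the same order of arrays as CHGA. Of the other granule cargo genes, only PCSK1N had this order, with log2 ratios of -0.14 and 0.15. VGF (1.24 and 1.15), NPY (0.19 and 0.42) and GAL (0.01 and 0.14) were above control with both siRNAs, and PAM had 0 and 0.05.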
